A study of Homo sapiens with 8 samples.

Results

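Gene expression was compared between 4 arrays of lung cancer cells that had received rosiglitazone and 4 that had not. The arrays were divided by their titles, rosiglitazone being named alone on 2 arrays and with carboplatin on 2, so that all 8 of the 8 arrays of the series took part. Every probe set except the 68 Affymetrix control probe sets was considered, and carboplatin entered the comparison as a second factor. The cells were a human non-small cell lung cancer (NSCLC) adenocarcinoma line whose name the labels do not give. For 24 h they received control medium (DMSO/control in the design text), 1 µM rosiglitazone, 10 µM carboplatin or both agents, with 2 arrays for each of these 4 treatments. All 4 treatments shared DMEM with fetal bovine serum, and the doses used together are not restated. Nothing in the labels shows that the 2 arrays of a treatment were separate cultures, and p-values therefore measure the spread between arrays, which may be technical only.

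Rosiglitazone is a thiazolidinedione that binds PPARγ, a nuclear receptor which pairs with RXR on DNA and switches on genes of fatty acid uptake, storage and oxidation when a ligand is bound. In fat tissue PPARγ drives adipocyte formation, and in lung adenocarcinoma lines its ligands have been studied for effects on growth and differentiation. Carboplatin is a platinum drug that crosslinks DNA. The series title concerns synergy between these 2 kinds of agent. The comparison described here asks what rosiglitazone changed when both carboplatin states are averaged, and the second factor asks whether the change was the same with and without the platinum drug.

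Levels are given as quantile normalised log2(signal + 16), and a difference is the mean of the 4 rosiglitazone arrays minus the mean of the 4 others, with its standard error (SE) from limma. Adjusted p-values are two-sided, from limma with Benjamini-Hochberg adjustment over 13338 probe sets, and a gene is said to have risen or fallen where that value was under 0.05. Gene lists were chosen with earlier results of these data known, so counts of calls within them are not independent evidence. The median deposited signal was 37.2 to 54.3 on the rosiglitazone arrays and 36.2 to 45.8 on the others. The ratio of 3' to 5' signal was 0.834 to 0.93 against 0.833 to 1.05 for GAPDH and 0.938 to 1.39 against 1.02 to 1.35 for ACTB, so both overlapped between the sides. Array brightness was on average higher with rosiglitazone (mean of the medians 47.5, SD 7.6, against 41.0, SD 4.9, n = 4 each), and the ranges overlapped. The keratins of simple epithelium KRT7, KRT8 and KRT18 were bright on every array (deposited signals 2082 to 5187, 1667 to 3028 and 4185 to 6118). The lung lineage factor NKX2-1 (2.79 to 29.3) and the epithelial adhesion gene EPCAM (2.66 to 28.2) lay below the filter on dim probe sets, as did all 7 endothelial markers. Of 9 leukocyte and 9 fibroblast markers on the array 2 and 3 passed that filter. Of 7 adipocyte markers, CIDEC (0.20 ± 0.14) and CFD (0.23 ± 0.15) were above it and did not pass the test, and ADIPOQ, PLIN1, FABP4, LEP and LPL were below it. The summed signal of these 7 was 186.5 to 202.5 with and 154.2 to 191.6 without rosiglitazone. Of 9 squamous and neuroendocrine markers SOX2 (0.45 ± 0.30), CHGA (-0.15 ± 0.18) and NCAM1 (-0.11 ± 0.21) were above it, and none passed the test.

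Rosiglitazone changed a small set of genes, mostly upward, and genes of fatty acid metabolism were prominent among the largest rises. In all 118 of 13338 probe sets passed (0.885%), 89 of them higher (0.667%) and 29 lower (0.217%). They named 96 genes, 71 that rose and 25 that fell, and 6 probe sets had no single gene symbol. The median size of a called difference was 0.74 on the log2 scale and the smallest 0.30. A difference of 1 or more, which is a doubling, was reached by 20 rises and 1 fall. On 116 of the 118 the 4 rosiglitazone arrays lay wholly above or wholly below the others, which held for 6.15% of all probe sets tested (3.2% above and 2.95% below). Without adjustment 1329 probe sets (9.96%) had a p under 0.05. Calls were most frequent among bright probe sets, 63 of them lying in the brightest of 5 equal classes by mean level and 1 in the dimmest. The deposited scaling moved the median over all probe sets from -0.0089 to 0.17, and with it 64 passed and the split was 62 higher and 2 lower, with 40 of them shared with the 118. Median scaling gave 61, testing dim probe sets too gave 71, and a constant prior variance gave 36. The count was 70 without carboplatin 1 and 77 without control 2.

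The lipid genes that rose most strongly are proteins of fat handling outside and inside the cell. ANGPTL4, a secreted inhibitor of lipoprotein lipase, was at 6.48 and 6.87 in control, 6.18 and 6.36 with carboplatin, 9.24 and 9.34 with rosiglitazone, and 9.65 and 8.91 with both. The rosiglitazone arrays were thus all more than 2 log2 units above every other array. The difference was 2.81 ± 0.16 (7.02-fold, 95% interval 2.46 to 3.17, adjusted p = 9.96e-06), the largest of any gene tested.

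PLIN2, which coats lipid droplets, was at 9.21 and 9.28 in control, 9.12 and 9.05 with carboplatin, 10.90 and 10.92 with rosiglitazone, and 10.93 and 10.67 with both. The sides lay far apart compared with the spread within either, and PLIN2 rose by 1.69 ± 0.083 (3.23-fold, adjusted p = 5.17e-06). PDK4, a kinase that shuts pyruvate out of the citric acid cycle when fatty acids are burned, was dim without rosiglitazone. Its levels were 5.14 and 5.15 in control, 4.92 and 5.69 with carboplatin, 7.28 and 7.34 with rosiglitazone, and 6.22 and 7.06 with both. The sides did not overlap, and PDK4 rose by 1.75 ± 0.22 (adjusted p = 0.00315). Its mean without rosiglitazone (5.23) lay under the filter of 5.378, which is set on the mean of all 8 arrays, so PDK4 was tested because of its level with rosiglitazone. With every probe set tested its adjusted p was 0.031, and its difference was 2.32 with a pseudocount of 1 and 1.03 with one of 64, so no fold is given. Of the other kinases of pyruvate dehydrogenase, PDK2 was at -0.21 ± 0.14 (adjusted p = 0.71). In the list of that complex and its kinases 1 of 9 genes rose, which was PDK4, and none fell. Of all 8030 genes tested, each by 1 probe set, 0.785% rose and 0.286% fell.

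Genes of a list of 43 PPAR targets, 24 of which passed the filter, were higher in 21 cases. The list had 7 rises and no fall among these 24, where 0.785% of all 8030 genes tested (each by 1 probe set) rose. Its median difference was 0.38, while that of all genes was -0.02, and 45.6% of all genes were above 0. The rises were those of ANGPTL4, PLIN2, ACAA2, ECH1, CAT, CPT1A and PDK4, the last of which entered the test only through its level with rosiglitazone. FABP5, a fatty acid binding protein (0.48 ± 0.10, adjusted p = 0.057), ACADVL (0.44 ± 0.097, adjusted p = 0.0705) and the carnitine carrier SLC25A20 (0.52 ± 0.13, adjusted p = 0.11) did not pass. Nor did the oxysterol receptor gene NR1H3 (0.55 ± 0.16) or the cholesterol exporter ABCA1 (0.24 ± 0.12). CPT2 (-0.41 ± 0.17, adjusted p = 0.46) and UCP2 (-0.23 ± 0.10, adjusted p = 0.49) were 2 of the 3 members below 0. FABP4, a target with a strong response in adipocytes, gave deposited signals of only 10.5 to 20.6 on the 8 arrays and was not tested.

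**Figure D1:**
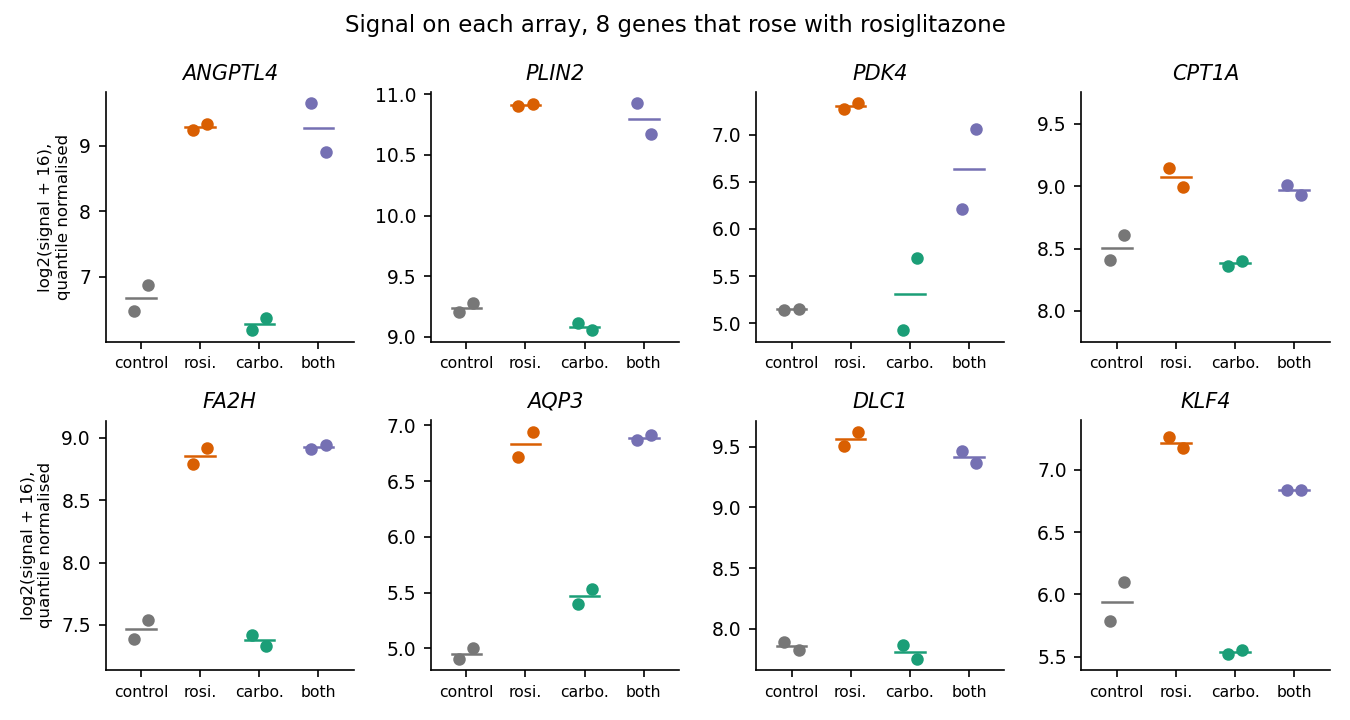
Level of 8 genes on each array (vertical axis, quantile normalised log2 of signal plus 16) by treatment (rosi., rosiglitazone; carbo., carboplatin; both, the combination); points are arrays and short lines are means of 2. In every panel the 4 arrays with rosiglitazone lie above the 4 without it, ANGPTL4 by the widest margin (2.81 on average).

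Within the oxidation pathway the rises fell at several steps, from mitochondrial entry to electron transfer. CPT1A, which commits fatty acids to the mitochondrion, was at 8.41, 8.61, 8.36 and 8.40 on the 4 arrays without rosiglitazone and at 9.15, 9.0, 9.01 and 8.93 on the 4 with it, and rose by 0.58 ± 0.095 (adjusted p = 0.0155). The thiolase gene ACAA2 rose by 0.84 ± 0.14 (adjusted p = 0.0153), from a mean of 8.29 to 9.13. ECH1, an isomerase needed for unsaturated fatty acids, rose by 0.80 ± 0.093 (adjusted p = 0.00276), its arrays lying at 8.90 to 9.16 without and 9.70 to 9.87 with the ligand. ETFA, a subunit of the flavoprotein that takes electrons from the acyl-CoA dehydrogenases, rose by 0.75 ± 0.12 (adjusted p = 0.0122). CAT, the peroxisomal catalase, rose by 0.75 ± 0.11 (adjusted p = 0.00517), at 8.99 to 9.27 without and 9.70 to 10.12 with it. These 5 were the rises among 29 tested genes of fatty acid oxidation and peroxisomes, where 0.785% of all genes tested rose. None fell, and 20 were above 0 with a median of 0.15, where 45.6% of all genes were above 0. All of the 5 but ETFA were already counted among the PPAR targets. Not every enzyme moved: HADHA, a subunit of the trifunctional protein, was at 0.15 ± 0.10 (95% interval -0.08 to 0.38), ACADM at 0.29 ± 0.18 and ABCD3, a peroxisomal transporter, at -0.44 ± 0.15 (adjusted p = 0.305). With the deposited scaling ECH1 (adjusted p = 0.0584), CAT (0.0706), ETFA (0.0656) and CPT1A (0.332) lost their calls, and with no intensity trend CAT, ETFA, ACAA2 and CPT1A did (0.0783 to 0.105). CAT and ECH1 kept theirs when any 1 array was left out. ETFA lost its call without control 1, control 2, rosiglitazone 2 or combination 2 (adjusted p 0.0505 to 0.0577), ACAA2 without either control, either rosiglitazone array or carboplatin 1 (0.0501 to 0.0689), and CPT1A without control 1, rosiglitazone 1, either carboplatin array or combination 1 (0.0568 to 0.076). Leaving out 1 array kept the difference between 0.61 and 0.88 for ETFA, 0.67 and 1.00 for ACAA2, and 0.53 and 0.62 for CPT1A.

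**Figure D2:**
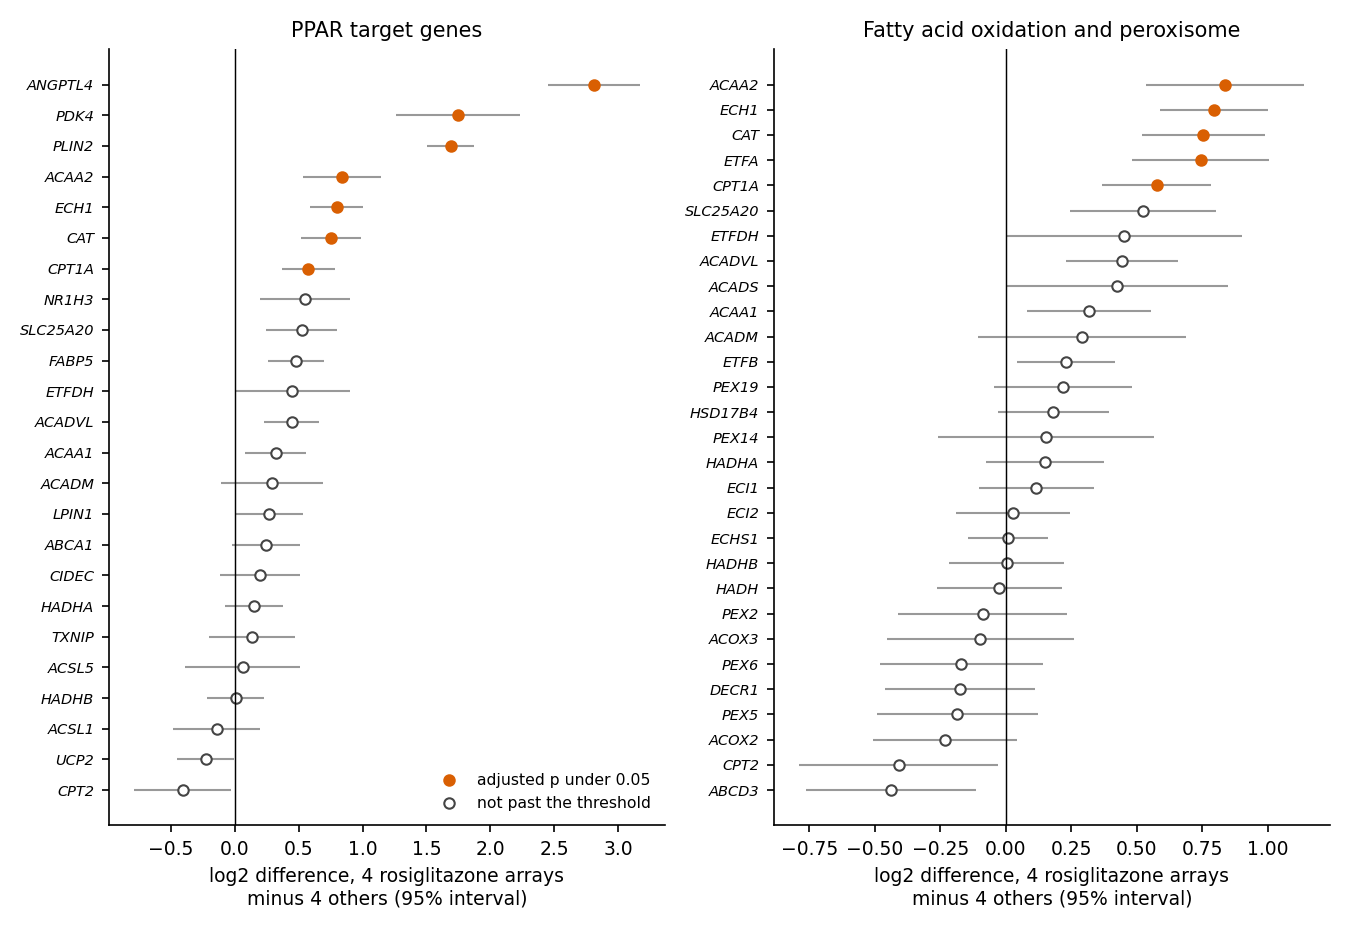
Log2 difference (horizontal axis, 4 rosiglitazone arrays minus 4 others, with 95% limma intervals) of the 24 tested PPAR target genes and the 29 tested genes of fatty acid oxidation and peroxisomes; several genes are in both lists. Filled points passed an adjusted p of 0.05, which were 7 and 5 genes, all above 0.

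Synthetic lipid genes were shifted upward by less. Of 11 fatty acid synthesis genes 10 were above 0 and 1 rose, the elongase ELOVL6 (0.60 ± 0.11, adjusted p = 0.0238). Of all genes tested 45.6% were above 0 and 0.785% rose. The ELOVL6 call was lost when any array but combination 1 was left out (adjusted p 0.0526 to 0.11), and a second probe set of the gene was at 0.13 ± 0.17. FASN, the fatty acid synthase, was at 0.16 ± 0.084 and ACLY, which makes cytosolic acetyl-CoA, at 0.39 ± 0.12, neither of them past the threshold. The brightest probe set of SCD, the stearoyl-CoA desaturase, was at 0.36 ± 0.17, while 2 of its 3 dimmer ones passed at 0.54 ± 0.11 and 1.26 ± 0.22, so its probe sets differ in size. Sterol synthesis genes were above 0 in 16 of 17 cases (median 0.23), and none passed. The smallest p-values there were those of LSS (0.38 ± 0.11), the sterol-sensing factor SREBF2 (0.51 ± 0.15), SQLE (0.29 ± 0.09) and INSIG1 (0.47 ± 0.15), with adjusted p from 0.21 to 0.265. Among 11 genes of lipoprotein and cholesterol transport only APOC1 passed, an apolipoprotein carried on chylomicrons and VLDL. APOC1 was at 7.34, 8.04, 7.67 and 7.33 without rosiglitazone and at 9.04, 8.68, 9.08 and 8.99 with it, a rise of 1.35 ± 0.16 (2.55-fold, adjusted p = 0.00276). A dimmer APOC1 probe set was at 0.60 ± 0.13 and did not pass (adjusted p = 0.071). VLDLR was at 0.50 ± 0.12 (adjusted p = 0.10) and LRP1 at 0.58 ± 0.19. In the lipid droplet list PLIN2 alone of 16 genes passed, and the list median was 0.03. AGPAT2, which makes phosphatidic acid, was at 0.41 ± 0.12 (adjusted p = 0.24) and HILPDA at 0.21 ± 0.10.

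Several of the largest rises were in genes outside these pathways. DLC1, a GTPase-activating protein, was at 7.89 and 7.82 in control, 7.87 and 7.75 with carboplatin, 9.50 and 9.62 with rosiglitazone, and 9.46 and 9.37 with both. It rose by 1.65 ± 0.093 (3.15-fold, adjusted p = 9.96e-06), and the sides did not overlap. AQP3, a channel for water and glycerol, was at 4.91 and 5.0 in control, 5.4 and 5.53 with carboplatin, 6.72 and 6.94 with rosiglitazone, and 6.87 and 6.91 with both. It rose by 1.65 ± 0.15 (adjusted p = 0.000566). AQP3 too had a mean under the filter without rosiglitazone (5.21) and was tested because of its level with it. With every probe set tested its adjusted p was 0.00904, and its difference was 2.23 with a pseudocount of 1 and 0.95 with one of 64, so no fold is given. The carboplatin arrays were higher than control, yet below all 4 rosiglitazone arrays. A second AQP3 probe set was at 0.66 ± 0.19 and did not pass. FA2H, which hydroxylates the fatty acids of sphingolipids, rose by 1.47 ± 0.099 (2.77-fold, adjusted p = 4.00e-05), from 7.33 to 7.54 on the arrays without rosiglitazone to 8.79 to 8.94 on those with it. FA2H was the 1 rise among 14 sphingolipid genes, of which UGCG (0.37 ± 0.11) and DEGS1 (0.38 ± 0.12) came next and did not pass. Of all genes tested 0.785% rose.

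Further rises concerned signalling, calcium and proteases. ATP2B4, a calcium pump of the plasma membrane, rose by 1.16 ± 0.10 (2.24-fold, adjusted p = 0.000419), and a second of its 3 probe sets rose by 0.71 ± 0.14 while the third was at -0.06 ± 0.17. LXN, an inhibitor of carboxypeptidases, rose by 1.15 ± 0.14, and RHOF, a small GTPase of filopodia, by 1.07 ± 0.13, both at an adjusted p of 0.0028. PPP2R3A, a regulatory subunit of protein phosphatase 2A, rose by 0.95 ± 0.11 (adjusted p = 0.0028). TGFA, a ligand of the EGF receptor, rose by 1.01 ± 0.18 (adjusted p = 0.0244), and its call was lost without any 1 of 6 arrays (adjusted p 0.0517 to 0.114), the exceptions being rosiglitazone 2 and carboplatin 2. LPCAT3, which loads polyunsaturated acyl chains into phospholipids, rose by 1.18 ± 0.20 (adjusted p = 0.0173) by 1 probe set, while its other one was at -0.16 ± 0.13. The LPCAT3 call was lost without control 1, rosiglitazone 1, carboplatin 2 or combination 1 (adjusted p 0.0645 to 0.0838).

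Transcription factors of the immediate early class were also among the rises. KLF4, a zinc finger factor linked to epithelial differentiation, was at 5.78 and 6.10 in control, 5.53 and 5.55 with carboplatin, 7.26 and 7.17 with rosiglitazone, and 6.84 and 6.84 with both. It rose by 1.29 ± 0.14 (2.44-fold, adjusted p = 0.00184), and every rosiglitazone array was above every other array. JUN, a subunit of AP-1, rose by 0.90 ± 0.11 (adjusted p = 0.00302), at 7.97 to 8.29 without and 8.86 to 9.17 with rosiglitazone, and a second of its 4 probe sets passed at 1.09 ± 0.14. PHLDA1 rose by 0.63 ± 0.091 and KLF10, a TGF-β-inducible repressor, by 0.87 ± 0.16 (adjusted p = 0.0291). With TGFA these were 5 rises among 28 genes of the list, where 0.785% of all genes tested rose. None fell, although 17 of the 28 were below 0 and the list median was -0.05. KLF2, at -1.08 ± 0.24, did not pass (adjusted p = 0.0825), but did so with the deposited scaling (-0.89, adjusted p = 0.0466). CEBPB, a factor of early adipocyte formation, rose by 0.47 ± 0.079 (adjusted p = 0.0173). The KLF10 call was lost without any array but rosiglitazone 1 and combination 1 (adjusted p 0.057 to 0.127). The CEBPB call was lost without control 1, rosiglitazone 1, either carboplatin array or combination 2 (adjusted p 0.0617 to 0.0834).

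Receptors of the tumour necrosis factor family and antioxidant genes made up another group. TNFRSF21, known as death receptor 6, was at 8.78, 8.81, 8.92 and 8.84 without rosiglitazone and at 9.68, 9.99, 9.77 and 9.98 with it, a rise of 1.02 ± 0.099 (2.02-fold, adjusted p = 0.000984). TNFRSF1A, the main receptor for tumour necrosis factor, rose by 0.78 ± 0.094 (adjusted p = 0.0028). They were the 2 rises among 28 apoptosis genes, none of which fell, where 0.785% of all genes tested rose and 0.286% fell. BAD (-0.40 ± 0.12) and BAX (-0.61 ± 0.27) did not pass.

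HMOX1, the inducible heme oxygenase, was at 8.22 and 8.22 in control, 8.40 and 8.42 with carboplatin, 9.08 and 8.93 with rosiglitazone, and 9.47 and 9.21 with both. It rose by 0.86 ± 0.097 (1.81-fold, adjusted p = 0.00218). Both states with rosiglitazone were above both without. The aldo-keto reductases AKR1C1 (0.30 ± 0.051, adjusted p = 0.0173) and AKR1C3 (0.39 ± 0.062, adjusted p = 0.0122), which reduce steroids and prostaglandins, rose slightly from very high levels (13.0 and 11.9). AKR1C2 did not pass by its brightest probe set (0.27 ± 0.056, adjusted p = 0.051), while a dimmer one passed at 0.32 ± 0.058 (adjusted p = 0.0224). A dimmer AKR1C1 probe set passed at 0.71 ± 0.10 (adjusted p = 0.00518), and another, at 0.22 ± 0.069, did not. The other AKR1C values given here are those of the brightest probe sets. AKR1C genes have near-identical sequences, so the share of each in these signals is uncertain. The AKR1C1 call was lost when any 1 of the 8 arrays was left out (adjusted p 0.0506 to 0.0805) and that of AKR1C3 without control 2, rosiglitazone 2, carboplatin 1 or combination 2 (0.054 to 0.0597). HMOX1, AKR1C1, AKR1C3 and CAT gave 4 rises and no fall among 32 genes of the NRF2 and glutathione list, whose median was 0.05. Of all genes tested 0.785% rose, and CAT is also counted in the PPAR and oxidation lists. NQO1, a widely used NRF2 target, was at -0.02 ± 0.063 (95% interval -0.16 to 0.11). Its value turned to 0.16 under the deposited and 0.0090 under median scaling, where the medians of all probe sets were 0.17 and 0.02.

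Extracellular matrix genes moved in both directions, with 4 rises and 3 falls among 33 tested (median -0.00060). Of all genes tested 0.785% rose and 0.286% fell. The list was chosen with earlier results of these data known, so these counts are not independent evidence about matrix genes. Both chains of collagen VI that were followed rose, COL6A1 by 0.80 ± 0.11 (adjusted p = 0.00509) and COL6A2 by 0.88 ± 0.11 (adjusted p = 0.00282). A second COL6A1 probe set passed at 1.21 ± 0.12, while dimmer ones at 0.84 ± 0.17, 0.44 ± 0.18 and 0.47 ± 0.30 did not. A second probe set of COL6A2 was at -0.03 ± 0.18. Fibronectin, FN1, rose by 0.68 ± 0.097 (adjusted p = 0.00517) with 3 of its 5 probe sets past the threshold, and COL4A1, of basement membrane collagen, by 0.52 ± 0.098 (adjusted p = 0.0317). Falling members were EFEMP1, CSGALNACT1 and COL5A1 (-0.56 ± 0.10, adjusted p = 0.0222). EFEMP1, which encodes the matrix glycoprotein fibulin-3, was at 8.92, 8.83, 8.85 and 9.17 without rosiglitazone and at 7.90, 8.03, 7.81 and 8.05 with it, a change of -0.995 ± 0.11 (adjusted p = 0.00191). CSGALNACT1, which starts chondroitin sulfate chains, was at 9.61, 9.94, 9.65 and 9.67 without it and at 8.77, 8.93, 8.65 and 8.61 with it, and fell by 0.98 ± 0.099 (adjusted p = 0.00127). The COL4A1 call was lost without any array but combination 1 (adjusted p 0.0559 to 0.146) and the COL5A1 call without any array but control 2 (0.0595 to 0.105). KRT7 rose by 0.56 ± 0.091 (adjusted p = 0.0138), the 1 call among 18 epithelial junction and keratin genes, and lost the call without control 1, carboplatin 1 or combination 2 (0.057 to 0.0687). With the deposited scaling KRT7 (adjusted p = 0.0655), FN1 (0.166) and COL4A1 (0.427) lost their calls. KRT7 also lost its call with median scaling (0.0789), no intensity trend (0.161) and brightness as a covariate (0.0664). DSP, of desmosomes, was at 0.58 ± 0.14 (adjusted p = 0.12).

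Metallothioneins are small proteins whose many cysteines hold zinc, copper and, in treated cells, platinum, and 5 of their genes fell. Promoters of the 3 members found among 7 looked up in the RefSeq promoter table (GRCh38.p14) are shown because these genes fell together and metallothionein genes are known to respond to zinc through metal response elements. Each sequence is the 250 bases before the annotated start, 5′ to 3′ on the plus strand of chromosome 16, with matches on either strand to the core letters TGCACNC or TGCGCNC (N is any base) in capitals.
MT2A, chr16:56608334-56608583: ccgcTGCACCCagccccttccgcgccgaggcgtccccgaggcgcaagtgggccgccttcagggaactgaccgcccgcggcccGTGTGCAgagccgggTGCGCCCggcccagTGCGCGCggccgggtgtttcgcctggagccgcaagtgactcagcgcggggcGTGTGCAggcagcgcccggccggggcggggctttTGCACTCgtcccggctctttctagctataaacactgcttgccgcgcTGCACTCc
MT1X, chr16:56682220-56682469: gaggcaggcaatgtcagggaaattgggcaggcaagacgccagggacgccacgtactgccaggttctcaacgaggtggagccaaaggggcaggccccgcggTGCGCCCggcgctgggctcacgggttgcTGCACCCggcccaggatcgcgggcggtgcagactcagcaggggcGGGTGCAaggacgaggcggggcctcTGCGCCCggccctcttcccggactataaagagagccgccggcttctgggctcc
MT1H, chr16:56669564-56669813: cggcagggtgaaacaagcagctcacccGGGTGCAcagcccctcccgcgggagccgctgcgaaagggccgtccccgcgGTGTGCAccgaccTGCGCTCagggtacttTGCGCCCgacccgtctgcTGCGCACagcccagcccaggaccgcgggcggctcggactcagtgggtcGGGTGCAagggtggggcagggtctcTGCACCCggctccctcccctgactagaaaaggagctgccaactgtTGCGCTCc
The windows hold 7, 4 and 8 matches, none overlapping another. At least 1 match was present in 24.8% of 35116 promoter windows of this length, and at least 4 in 0.37%. A match describes the letters of the window and is not evidence of a site in use. Windows of 12 risen genes, 11 of them in the table (ANGPTL4, PLIN2, PDK4, CPT1A, ACAA2, CAT, ETFA, FA2H, AQP3, KLF4 and APOC1), were searched on either strand for AGGTCA, a half-site of nuclear receptors. It was in 0 of the 11 and in 12.1% of all windows, which says only that these letters are not in these windows.

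MT2A, a widely expressed member, was at 13.01 and 12.94 in control, 12.76 and 12.68 with carboplatin, 12.27 and 11.96 with rosiglitazone, and 12.34 and 12.06 with both. It fell by 0.69 ± 0.084 (1.61-fold lower, adjusted p = 0.0028), and no rosiglitazone array reached the lowest of the others. MT1X was at 11.59 and 11.51 in control, 11.62 and 11.24 with carboplatin, 10.67 and 10.32 with rosiglitazone, and 10.64 and 10.35 with both. MT1X fell by 0.99 ± 0.11 (1.99-fold lower, adjusted p = 0.00191). MT1H, at 10.42 to 10.71 without and 9.68 to 9.93 with rosiglitazone, fell by 0.71 ± 0.087 (adjusted p = 0.00282). MT1G (-0.76 ± 0.11, adjusted p = 0.00509) and MT1F (-0.78 ± 0.12, adjusted p = 0.0122) also fell. MT1E (-0.42 ± 0.14, adjusted p = 0.28) and the neural member MT3 (-0.49 ± 0.24, adjusted p = 0.56) did not pass. Thus 7 of 7 tested genes were lower and 5 fell, and the family median was -0.71. Of all 8030 genes tested 4372 were lower and 0.286% fell. The mean of MT3 with rosiglitazone lay under the filter of 5.378 (arrays at 5.48, 5.55, 5.61 and 4.56). MT3 was thus tested because of its level without rosiglitazone (5.58, 6.07, 5.73 and 5.76), and its lower value adds no support. Metallothioneins were singled out by the study on these same arrays, so their direction here is not independent evidence. All the tested probe sets but that of MT3 carry the platform's mark for probes that match several similar transcripts. Which members fell is therefore uncertain, and the 7 may not be separate signals. An MT1G probe set without that mark lay below the filter and was not tested, nor were those of MT1M and MT4. That MT1G probe set was at 4.5, 4.12, 4.8 and 5.3 without rosiglitazone and at 4.9, 5.21, 5.72 and 5.29 with it. The MT1F call was lost without control 1 or carboplatin 1 (adjusted p 0.0617 to 0.062). With the deposited scaling none of the 5 passed, although all 7 stayed below 0 there (median -0.51).

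**Figure D3:**
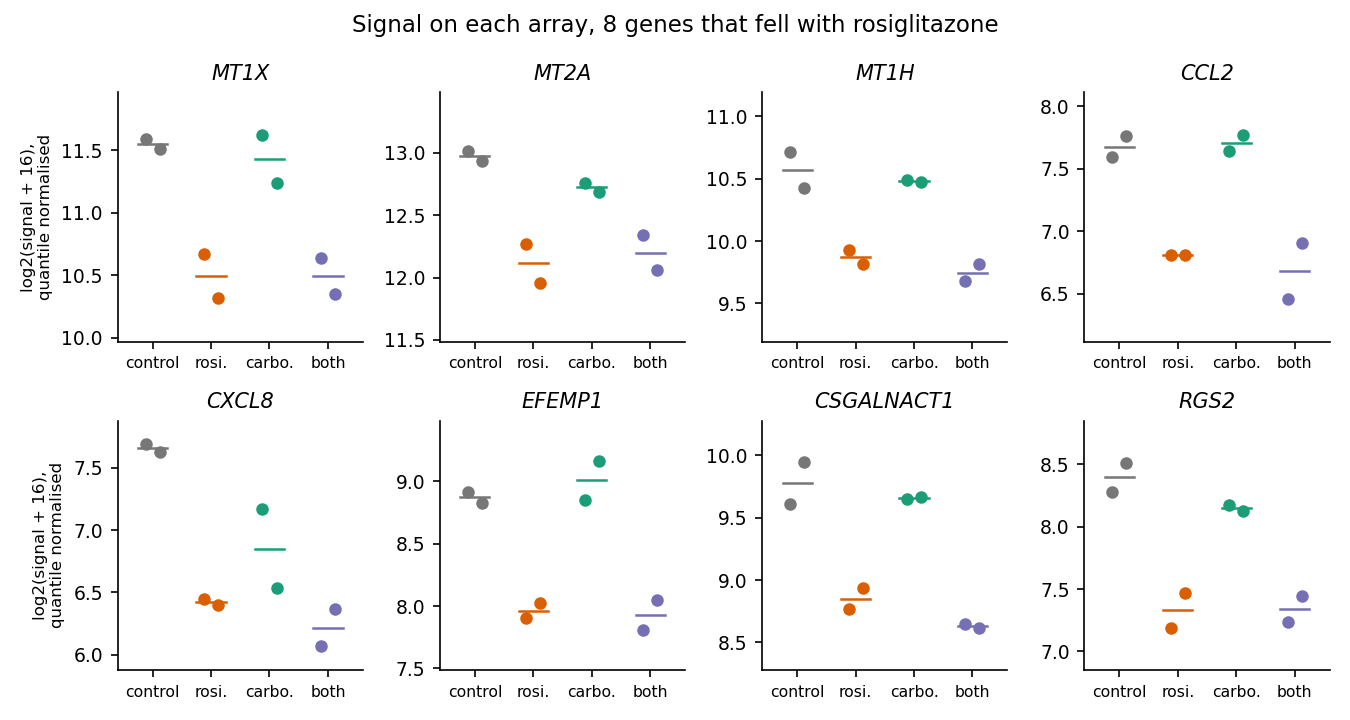
Level of 8 genes on each array (vertical axis, quantile normalised log2 of signal plus 16) by treatment, drawn as in the plot of rises. The 4 arrays with rosiglitazone lie below the 4 without it in every panel; for CXCL8 the lower carboplatin array (6.54) lies close to the higher rosiglitazone array (6.45).

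Among genes of zinc, copper and platinum handling other than metallothioneins, ABCG2, a drug efflux pump, was the only call of 21. Of all genes tested 1.07% were called in either direction. ABCG2 was at 7.91, 7.89, 7.51 and 7.98 without rosiglitazone and at 8.41, 8.65, 8.53 and 8.65 with it, and rose by 0.74 ± 0.12 (1.67-fold, adjusted p = 0.0170). Its call was lost without either control, rosiglitazone 2, carboplatin 1 or combination 2 (adjusted p 0.0617 to 0.0689), with differences from 0.62 to 0.86 over all arrays left out. The copper transporter SLC31A1, which can carry platinum drugs into cells, was at -0.04 ± 0.19 (95% interval -0.45 to 0.37). Its value turned to 0.14 with the deposited scaling, where the median of all probe sets was 0.17. The zinc exporter SLC30A1 was at 0.16 ± 0.12, the drug exporter ABCC1 at 0.27 ± 0.084 (adjusted p = 0.265), its relative ABCC3 at 0.20 ± 0.093, and the zinc importer SLC39A4 at 0.28 ± 0.13.

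A pair of chemokines that recruit leukocytes fell. CCL2, which attracts monocytes, was at 7.59, 7.76, 7.64 and 7.77 without rosiglitazone and at 6.81, 6.81, 6.46 and 6.91 with it, a fall of 0.95 ± 0.13 (1.93-fold lower, adjusted p = 0.00509). CXCL8, which attracts neutrophils, was at 7.69 and 7.63 in control, 7.17 and 6.54 with carboplatin, 6.45 and 6.4 with rosiglitazone, and 6.07 and 6.37 with both. The carboplatin arrays of CXCL8 lay between control and rosiglitazone. Its fall of 0.93 ± 0.16 (adjusted p = 0.0173) lost the call without any array but carboplatin 2 and combination 2 (adjusted p 0.0595 to 0.0808). The CXCL8 probe set used here carries the platform's mark for probes that match several similar transcripts. A dimmer CXCL8 probe set (mean level 5.39) overlapped between the sides at -0.37 ± 0.28 and did not pass (adjusted p = 0.74). The list of NF-κB targets and chemokines held 2 falls, those of CCL2 and CXCL8, and no rise among 28 genes, where 0.286% of all genes tested fell. Of the 28, 18 were below 0 (median -0.13). With the deposited scaling, where the median of all probe sets was 0.17, 16 of the 28 were above 0. CXCL1 (-0.88 ± 0.19, adjusted p = 0.060), CXCL3 (-0.60 ± 0.17), CXCL5 (-0.68 ± 0.23) and RELB (-0.34 ± 0.13) did not pass. Above 0 were 10 of the 28, led by CCL5 (0.50 ± 0.21), ICAM1 (0.44 ± 0.17) and IRF1 (0.28 ± 0.11), which did not pass either.

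Other large falls were in signalling and metabolic genes. RGS2, which switches off G protein signals, was at 8.28, 8.51, 8.17 and 8.13 without and 7.19, 7.47, 7.23 and 7.44 with rosiglitazone, and fell by 0.94 ± 0.12 (adjusted p = 0.00302). RPS6KA5, a kinase that phosphorylates CREB and histone H3, fell by 0.94 ± 0.13 (adjusted p = 0.00509), and NXN, a relative of thioredoxin, by 0.88 ± 0.11 (adjusted p = 0.00293). NNMT, which methylates nicotinamide, fell by 0.80 ± 0.12 (adjusted p = 0.00924), and PPP1R3C, which targets a phosphatase to glycogen, by 0.89 ± 0.14 (adjusted p = 0.0105). The secreted disulfide isomerase AGR2 had the largest fall past the threshold at 1.02 ± 0.19 (adjusted p = 0.0253), from 6.78 to 7.07 without to 5.57 to 6.36 with rosiglitazone, and lost its call without any array but rosiglitazone 2 (0.052 to 0.114). IGFBP7, a secreted binding protein, fell by 0.76 ± 0.15 (adjusted p = 0.0425) and lost its call without any array but carboplatin 1 (0.0535 to 0.16). The PPP1R3C call was lost without control 1 or carboplatin 1 (0.0565 to 0.0602). ADM, the vasodilator peptide adrenomedullin, fell by 0.54 ± 0.11 (adjusted p = 0.0437), the 1 call among 32 genes of glycolysis and hypoxia, and lost it when any 1 array was left out (0.052 to 0.167). Of all genes tested 1.07% were called in either direction. HIF1A (0.26 ± 0.083), P4HA2 (0.31 ± 0.097) and ERO1A (0.60 ± 0.20) did not pass. In all, each of the 19 falling genes named in the text lost its call with the deposited scaling, while none changed direction.

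Gene lists tied to growth and DNA damage held no call, where 1.07% of all genes tested were called. Of 48 genes of G2 and mitosis 37 were below 0 (median -0.07), led by PTTG1 (-0.31 ± 0.09), CCNB2 (-0.27 ± 0.081) and STMN1 (-0.45 ± 0.14), with adjusted p from 0.221 to 0.265. Of 47 DNA replication and G1/S genes 33 were below 0 (median -0.10), including CCND3 (-0.36 ± 0.089, adjusted p = 0.12), POLA1 (-0.31 ± 0.12) and CHAF1A (-0.25 ± 0.11). These directions depended on scaling. With the deposited scaling, which put the median of all probe sets at 0.17, 37 of the 48 and 35 of the 47 were above 0. Relative to that median 35 and 32 were then lower. Interstrand crosslink and excision repair genes were below 0 in 19 of 27 cases, none past the threshold, with ERCC1 at -0.23 ± 0.12 and FANCL at -0.39 ± 0.18, but with the deposited scaling 19 of the 27 were above 0. Among 23 p53 targets 14 were below 0 and none passed, and with the deposited scaling 16 were above 0. CDKN1A, which encodes p21, was at 7.43 and 7.62 in control, 9.10 and 9.06 with carboplatin, 7.48 and 7.55 with rosiglitazone, and 9.34 and 8.75 with both. The high arrays of CDKN1A were thus the 4 with carboplatin, and the rosiglitazone difference was -0.02 ± 0.13 (95% interval -0.31 to 0.26), turning to 0.18 with the deposited and 0.03 with median scaling. GDF15 (-0.37 ± 0.11, adjusted p = 0.26), PHLDA3 (0.44 ± 0.12, adjusted p = 0.17) and GADD45A (-0.47 ± 0.15) did not pass. The receptors themselves were not changed detectably, PPARG being at 8.07 to 8.30 without and 7.84 to 8.16 with rosiglitazone (-0.21 ± 0.11, adjusted p = 0.57), and no gene of 12 receptors and coregulators passed. RXRA, the partner of PPARγ, was at 0.04 ± 0.12. Respiratory chain subunits (47 tested), cytosolic ribosomal proteins (43) and interferon genes (25) also held no call, with medians of -0.02, 0.0040 and 0.04. The respiratory median was 0.18 with the deposited scaling, close to that of all probe sets there (0.17).

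**Figure D4:**
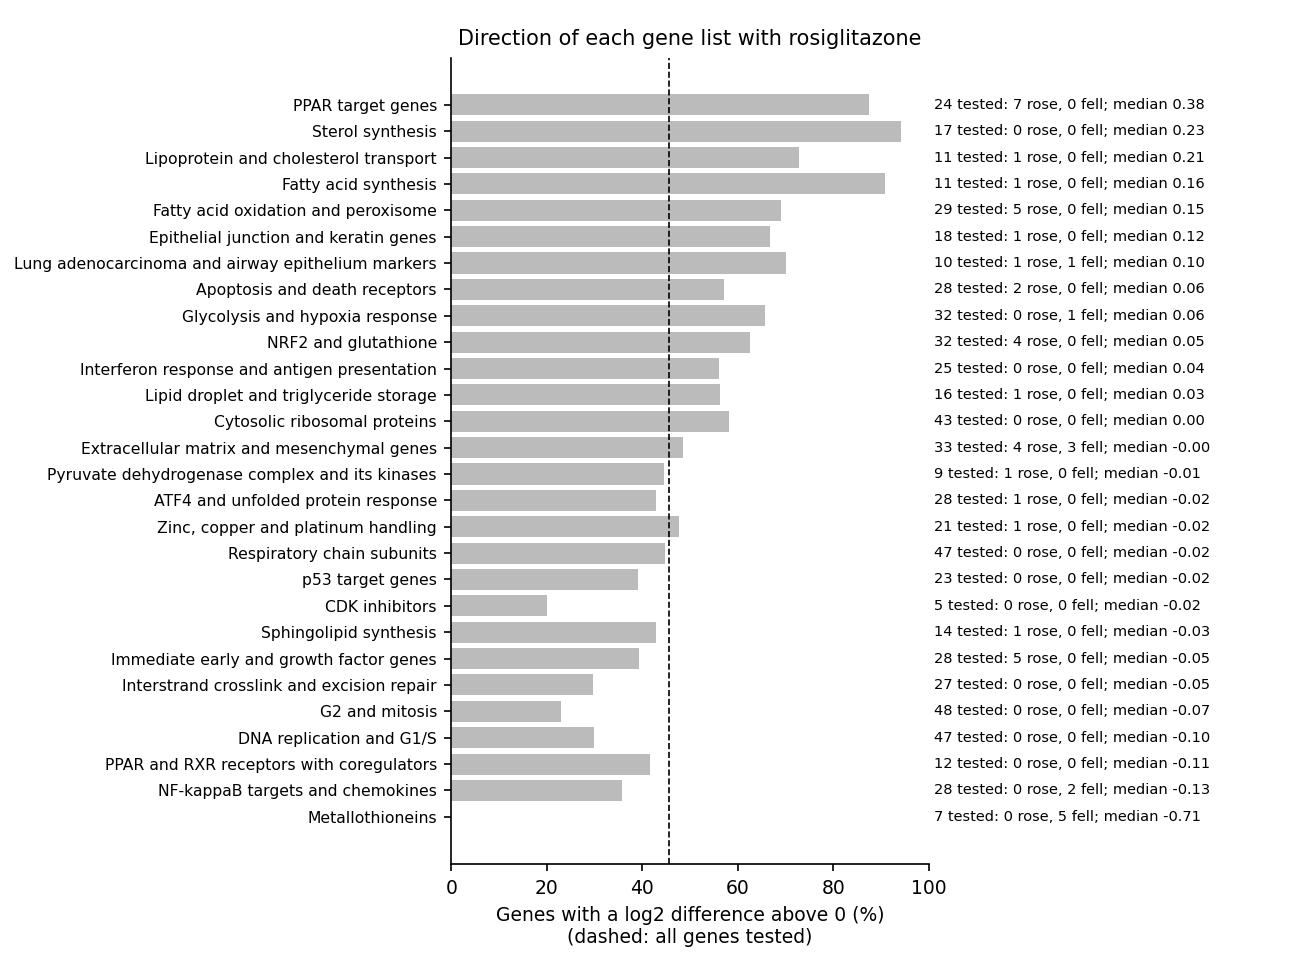
Percent of the tested genes of each list with a log2 difference above 0 (horizontal axis), in order of the list's median difference; the dashed line is the value over all 8030 genes (45.6%), and the text gives genes tested, genes past an adjusted p of 0.05 in each direction, and the median. Metallothioneins are at 0% with 5 falls, and PPAR targets at 87.5% with 7 rises.

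The effect of rosiglitazone was then set apart by carboplatin state. Without carboplatin, rosiglitazone against control gave 48 calls (0.36%), 36 higher (0.27%) and 12 lower (0.09%). With it, the combination against carboplatin gave 21 (0.157%), 19 higher (0.142%) and 2 lower (0.015%). These 2 differences share no array, though all 8 arrays were normalised together. Unadjusted, 10.4% and 6.43% of probe sets had a p under 0.05 in these 2 states. Of the 48, 46 were among the 118 of the main effect, as were 20 of the 21, and 12 were called in both states. A further 64 of the 118 were called in neither state alone. Among all 118, the difference without carboplatin was larger in 72 and that with it in 46, at median sizes of 0.77 and 0.68. None differed in sign, which for the 116 whose sides did not overlap was fixed by that lack of overlap. Across all 13338 probe sets, which are not independent, the 2 differences correlated weakly (Pearson correlation 0.145, Spearman correlation 0.09), and 52.6% shared a sign. Genes chosen in 1 state mostly kept their sign in the other, with smaller falls. Of the 50 rises of smallest p without carboplatin 48 were higher with it (median 0.94, then 0.77), as were 49.3% of all probe sets. Of the 50 falls 42 were lower (median -0.81, then -0.37), as were 50.7% of all. An unadjusted limma p under 0.05 was reached there by 42 of the rises and 25 of the falls. Chosen with carboplatin, 49 of 50 rises and 44 of 50 falls kept their sign without it. Such a p was then reached by 45 and 25, the falls at a median of -0.75, then -0.33. Of all probe sets 48.1% were higher and 51.9% lower without carboplatin. The count of 48 became 3 without rosiglitazone 2, 7 without rosiglitazone 1, 14 without control 2, 17 without control 1 and 30 without carboplatin 2. The count of 21 became 4 without carboplatin 1, 5 without combination 1, 6 without carboplatin 2, 7 without combination 2 and 8 without rosiglitazone 1.

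The largest changes were chosen with sides that do not overlap, which fixes the same sign in both states. Some had like and some unlike sizes. ANGPTL4 rose by 2.62 without and 3.01 with carboplatin (interaction 0.39, 95% interval -0.33 to 1.10), PLIN2 by 1.67 and 1.71, DLC1 by 1.70 and 1.60, and FA2H by 1.39 and 1.55. MT1X was at -1.06 and -0.93, EFEMP1 at -0.91 and -1.08, and CSGALNACT1 at -0.93 and -1.03. PDK4 was at 2.16 and 1.33 (interaction -0.83, 95% interval -1.81 to 0.14), AQP3 at 1.88 and 1.42 (-0.45, 95% interval -1.11 to 0.20), and APOC1 at 1.17 and 1.53 (0.36, 95% interval -0.34 to 1.07). No probe set passed for the interaction (limma, 0 of 13338), and 796 had an unadjusted p under 0.05 (5.97%), 13 of them among the 118. For the called genes the 95% interval of the interaction, which is not adjusted over probe sets, had a median half-width of 0.48. Differences above that size did not pass either, such as that of NXN (0.79, 95% interval 0.31 to 1.27). The absence of calls therefore does not exclude differences between the states of that size or larger. The 5 smallest p-values belonged to single probe sets of PLCG1 (0.72 without, -1.38 with carboplatin), CDK10 (-0.23 and 1.53), ERF (1.12 and -0.14), PTP4A2 (-0.61 and 1.01) and ATP2C1 (-0.73 and 0.82). Each had an adjusted p of 0.82. The brightest probe set of CDK10 was instead at 0.20 and -0.02, and that of PTP4A2 at 0.45 and 0.14. Another PLCG1 probe set was at 0.12 and -0.41, and dimmer ones of ATP2C1 at -0.06 and 0.27 and at -0.14 and 0.11. With the deposited scaling 3 probe sets passed, 1 of them the PLCG1 probe set of smallest p (-2.25, adjusted p = 0.024). NXN, at -1.28 without and -0.48 with carboplatin, had an unadjusted interaction p of 0.00383 and an adjusted one of 0.82.

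**Figure D5:**
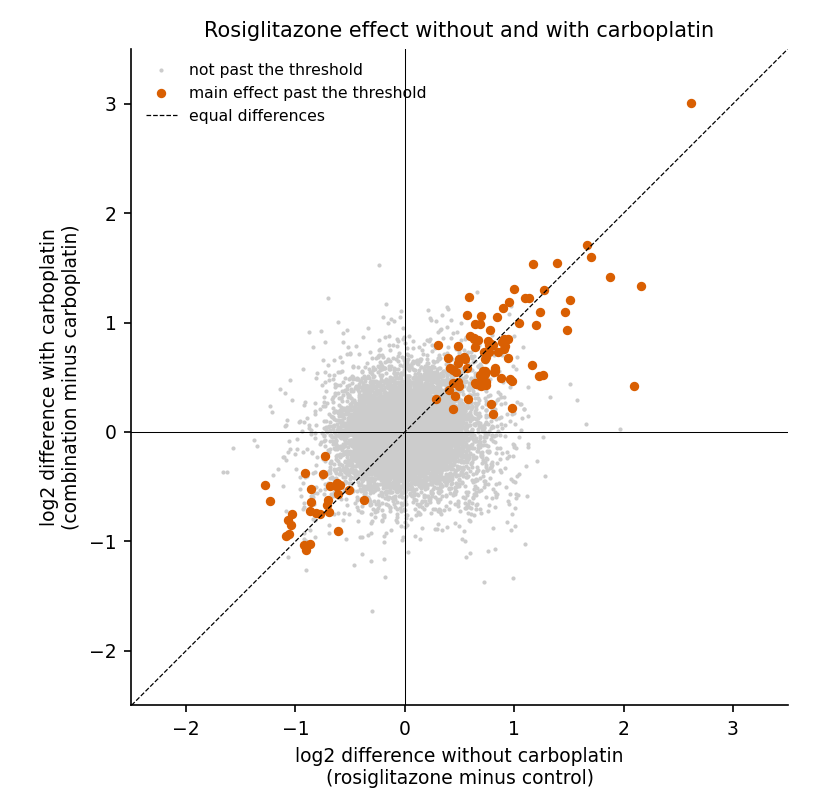
Log2 difference of each of 13338 probe sets without carboplatin (horizontal axis, rosiglitazone minus control) and with it (vertical axis, combination minus carboplatin); large points are the 118 whose main effect passed an adjusted p of 0.05, which were chosen on the mean of the 2 axes, and the dashed line marks equal differences. All 118 have the same sign in both, and ANGPTL4 is the point farthest to the upper right (2.62 and 3.01).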

How the data were processed

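The 8 Affymetrix Human Genome U133 arrays were grouped by sample title, 4 with rosiglitazone and 4 without. The deposited values are intensity signals on a linear scale, 1 per probe set. How they were background corrected and scaled, and with which software, is not given in the sources used here. From the deposited intensity values log2(signal + 16) was computed and quantile normalised, because array medians spanned 0.43 log2 units. The 68 control probe sets and those with a mean below the 40th percentile were left out, leaving 13338 of 22283. A change in a dim gene is understated by the added 16. Only the 19071 probe sets with 1 gene symbol were named, and a gene is represented by its brightest tested probe set.

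A model with 1 mean per treatment was fitted to all 8 arrays (limma 3.58.1, R 4.3.3, lmFit and eBayes with an intensity trend, 4 residual and 7.1 prior degrees of freedom). Contrasts were the rosiglitazone effect averaged over carboplatin, that effect in each carboplatin state, and the interaction. In simulated data with the means of the 13338 probe sets, the main effect recovered 76 of 100 changes of size 1 and 94 of 100 of size 2 with 5 false calls. The number of arrays limits the precision.

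The 34 gene lists and the comparison itself were chosen with earlier results of these data known. Named were the 15 largest rises and 15 largest falls whose sides do not overlap, up to 4 genes of smallest p from a list, every metallothionein, and the 5 smallest interaction p-values; further genes were chosen after their values were seen. Replicate numbers were not used to pair the arrays in the main model. Alternatives were the deposited scaling, median scaling, a pseudocount of 1 or 64, testing all probe sets, filtering at the 60th percentile, no intensity trend, additive and 1-factor models, a replicate block, brightness as a covariate, leaving out each array, and (chosen after seeing the data) the brighter or dimmer array of a treatment as a block. With an array left out, the lone array of its treatment is assumed to vary like the other treatments.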

Additional observations from a re-analysis of the deposited data

Results flagged for a closer look

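In each of the 30 genes with the largest rises and falls, the 4 arrays of each side were examined for 1 array standing apart from the other 3, which gave 60 sets of 4 and 2 that passed the limit. Chance alone flags about 1 set in 20. PLIN2 was at 10.67 in combination 2, below the other rosiglitazone arrays, which lay at 10.90 to 10.93. The gap to the nearest was 0.907 of the range, and all 4 were still above every array without rosiglitazone. AGR2 was at 6.78 in carboplatin 2, below the other arrays without rosiglitazone (7.04 to 7.07), a gap of 0.877 of the range. The difference of AGR2 was -1.09 without that array (adjusted p = 0.053), against -1.02 with it.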

How the results depend on the processing

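Of the 69 genes named in the text that passed the threshold, none changed direction under the 20 alternatives, and 17 passed under all 20. The deposited scaling ended 41 of these calls, no intensity trend 43 and median scaling 22, while 43 held whichever 1 array was left out. Probe sets past the threshold for the rosiglitazone effect, 118 as reported, were 64 with the deposited scaling (62 higher), 61 with median scaling, 71 with no filter, 36 with no intensity trend and 70 to 91 with 1 array left out. Without carboplatin the 48 became 24, 18, 6 and 6 under these same settings, 19 with brightness as a covariate, 80 with the brightness class as a block, and 3 to 49 with 1 array left out. With carboplatin the 21 became 9, 8, 6 and 5, and 4 to 23. The interaction had 3 with the deposited scaling. The cause was not tested. Correlations of deviations between arrays of the same replicate number ran from -0.11 to 0.253, the highest being that of carboplatin and combination. Such correlations cannot decide whether the numbers pair the arrays. With a replicate block 115 probe sets passed, 107 of them shared with the 118.

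List medians, relative to that of all probe sets, moved by more than the replicate spread in 32 of 392 cases. PPAR targets were at 0.26 with a pseudocount of 64 and 0.46 with the filter at the 60th percentile. Lipoprotein genes were at 0.15 with the deposited and 0.15 with median scaling, 0.10 with a pseudocount of 64 and 0.036 with that filter. The filter gave p53 targets -0.058, NF-κB targets -0.17 and epithelial genes 0.28. With 1 array left out, medians ran from 0.32 to 0.42 for PPAR targets, -0.035 to 0.11 for lipid droplets, 0.11 to 0.20 for fatty acid oxidation, 0.20 to 0.27 for sterol synthesis, 0.14 to 0.31 for lipoproteins, -0.043 to 0.057 for metal handling, -0.075 to -0.012 for p53 targets, -0.11 to -0.054 for replication and -0.17 to -0.12 for NF-κB targets. They ran from -0.027 to 0.078 for interferon genes, -0.064 to 0.0030 for immediate early genes, -0.015 to 0.046 for matrix, 0.076 to 0.27 for epithelial genes, -0.0048 to 0.025 for ribosomal proteins and -0.022 to 0.24 for lung markers.

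Signs turned for 4 genes that did not pass. The median of all probe sets was itself 0.17 with the deposited and 0.02 with median scaling. SLC31A1 was at 0.14 with the deposited scaling, 0.0022 with the brightness covariate and -0.19 to 0.098 with 1 array left out. NQO1 was at 0.16 with the deposited and 0.0090 with median scaling, and -0.073 to 0.027. CDKN1A was at 0.18, 0.027 and, with the brightness covariate, 0.13, and -0.17 to 0.12. RXRA ran from -0.047 to 0.13. Signal over background limits dim genes, and 2 arrays per treatment limit the interaction.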

Other observations

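Outside the genes named so far, several others past the threshold (limma, Benjamini-Hochberg adjusted) were picked out after their values had been seen. POR, the reductase that feeds electrons to cytochrome P450 enzymes, rose by 0.82 ± 0.089 (adjusted p = 0.00184), and PTGES, which makes prostaglandin E2, by 0.74 ± 0.095 (adjusted p = 0.00338). ANXA1, a calcium-dependent phospholipid-binding protein, rose by 0.64 ± 0.08, the cathepsin inhibitor CSTB by 0.60 ± 0.073, and the autophagy receptor SQSTM1 by 0.56 ± 0.074. EPAS1, which encodes HIF-2α, rose by 0.86 ± 0.11 (adjusted p = 0.00352), the sialomucin gene PODXL by 0.88 ± 0.12, the kinase gene STK10 by 0.91 ± 0.13 and the actin-binding gene COTL1 by 0.75 ± 0.11. PALLD, a scaffold of actin bundles, fell by 0.54 ± 0.076 (adjusted p = 0.00509). These calls held whichever 1 array was left out. With the deposited scaling POR (adjusted p = 0.064), PTGES (0.0857), SQSTM1 (0.0882) and PALLD (0.925) lost theirs, and with no intensity trend all but POR and STK10 did (0.0527 to 0.102).

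Other rises lost their calls when some arrays were left out. DBI, which carries acyl-CoA esters, rose by 0.51 ± 0.088, the carnitine importer SLC22A5 by 0.61 ± 0.11, the citrate carrier SLC25A1 by 0.65 ± 0.10 and PRKAG2, a subunit of AMP-activated kinase, by 0.69 ± 0.12. The Notch ligand JAG1 rose by 0.70 ± 0.12 and the receptor FGFR1 by 0.72 ± 0.12. Only the brightest FGFR1 probe set passed, the next brightest being at 0.26 ± 0.10 and the dimmest at -0.23 ± 0.21. The dimmer DBI probe sets, at 0.29 ± 0.093 and 0.33 ± 0.090, did not pass. Leaving out 1 array lost the call of SLC22A5 in 7 of 8 cases, of DBI and JAG1 in 6, of PRKAG2 in 5, of FGFR1 in 4 and of SLC25A1 in 2. Of these, SLC25A1 was lost without control 2 or carboplatin 2, FGFR1 without control 2, rosiglitazone 1, carboplatin 1 or combination 1, and PRKAG2 without either control, rosiglitazone 1, carboplatin 1 or combination 2. SLC22A5 kept its call without control 2 only, DBI without control 1 or carboplatin 1, and JAG1 without rosiglitazone 2 or carboplatin 1. Adjusted p-values of the lost calls ran from 0.0505 to 0.107.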
